A study of Mus musculus with 31 samples.

Results

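Exon use of 70 splicing events in 60 ubiquitin, chaperone and autophagy genes was described in the cortex of 3 mouse lines of Huntington's disease (HD). The events were taken by gene symbol alone, as those of the Usp, Uba and Ube, Ubr, Ubqln, Fbx, Rnf, Trim, Cul, Psm, Dnaj, Hsp, Atg, Mib, Otu, Fkbp, Senp, Wwp and Klhl families and of Huwe1, Wdfy3, Ambra1 and their like, out of 1922 events in 1559 genes. Of these, 57 were listed for all 3 lines, 4 for 2 lines and 9 for 1 line. The event list of the R6/2 mice held 59 of them among 1743 events, that of the Q150 mice 63 among 1785 and that of the Q175 mice 66 among 1839. Cassette exons made up 68 of the 70 events, and the other two were an alternative 3′ splice site in Rnf216 and a mutually exclusive pair in Ubr2.

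RASL-seq measured each event with probe pairs that were ligated on the RNA across known junctions and then counted by sequencing. For a cassette exon the short count came from the junction that skips the exon and the long count from 1 that includes it. Exclusion, in percent, is the short count over the sum of both, and for the few events of other types it is only the share of the short count. The cortex of 31 mice that received no treatment was used, 1 library per mouse. R6/2 mice (B6CBA-Tg(HDexon1)62Gpb/3J, aged 3 months) carry a transgene of exon 1 of mutant human huntingtin, and 3 of them (R6/2 HD) were compared with 3 mice without the transgene (R6/2 WT). In the knock-in lines the expansion lies in the mouse's own huntingtin gene. Q150 mice (B6.129P2-Htttm2Detl/150J, aged 7 months) carried it on 1 allele (HET, n = 4) or on both (HOMO, n = 4), and Q175 mice (B6J.129S1-Htttm1Mfc/190ChdiJ, aged 18 months) likewise (HET, n = 4, and HOMO, n = 3), so that no HOMO mouse kept a normal allele. Each knock-in line was compared with 5 WT mice with 7 glutamines on each allele, whose files held the same list of events. The labels conflict on the line: the titles call every knock-in mouse Q150, and the genotype field opens with Q175 for every mutant, so the line, and with it the age, was taken from the number of glutamines in that field. The lines differed in age as well as in mutation, and these cannot be told apart between lines.

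Proteins are marked for removal by a cascade in which an E1 enzyme activates ubiquitin, an E2 enzyme carries it and an E3 ligase chooses the substrate, while deubiquitinases take ubiquitin off again. SUMO and NEDD8 are passed on by similar cascades. Chaperones of the Hsp70 and Hsp110 families fold proteins with the help of J-domain proteins, the proteasome degrades tagged proteins, and autophagy delivers aggregates and organelles to lysosomes. Mutant huntingtin forms ubiquitin-positive aggregates in neurons, which is why these systems are often examined in HD.

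By role, the events fell into 8 of E1 and E2 enzymes, 30 of E3 ligases and their adaptors, 10 grouped by their Usp or Otu symbols (deubiquitinases, but for 3 events of the SUMO protease Uspl1), 7 of other ubiquitin-binding and SUMO protease genes, 3 of proteasome genes, 8 of chaperones and immunophilins, and 4 of autophagy genes. Exclusion in WT mice spanned the whole scale. Of the 59 events of the R6/2 list, 19 were excluded in under 20% of counts, 20 in 20% to 80% and 20 in over 80%, shares of 32.2%, 33.9% and 33.9%, beside 33.7%, 41.8% and 24.4% of all events. The mean count per mouse of an event ran from 32 to 20598 in these 59. Not every listed event was a separate measurement. Uspl1 events 8228 and 9408 had identical short and long counts in every mouse and were 1 measurement with 2 listings, so 69 of the 70 were distinct. Their long junction was also the short junction of Uspl1 event 8215, and the Fbxw11 events 7916 and 8865 shared a short junction. Totals of both junctions ranged from 2171709 to 5256516 counts per mouse, of which the members took 3.71% to 4.49%. In the R6/2 line they were 2171709 to 3527614 in WT and 3438725 to 4337557 in HD mice. Counting error is given below as the widest 95% Wilson interval of any mouse.

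A change was tested as the log2 of the short to long ratio with limma, and an event passed when its Benjamini-Hochberg adjusted p over all events of its list was under 0.05. In R6/2 HD against R6/2 WT, 16 of 59 members passed, 11 with higher and 5 with lower exclusion. These were 15 distinct measurements. Of the whole list 28.6% passed, 21.1% upwards and 7.46% downwards, so the share of members, 27.1%, was near that background. The HD and WT mice did not overlap in exclusion for 27 of the 59 members, 45.8%, beside 41.5% of all events. The median log2 change was 0.14 over the members and 0.18 over all events.

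In Q150 HOMO against WT, 20 of 63 members passed (19 distinct), 15 higher and 5 lower, or 31.7% beside 23.9% of all events (19.8% higher and 4.09% lower). Fewer passed in Q150 HET mice, 3 of 63, all higher, beside 3.47% of all events. This count was 0 without HET replicate 1, and 8 of 60 with all 10 knock-in WT mice (8.26% of all events). In Q175 HOMO mice 4 of 66 passed, 3 higher and 1 lower, or 6.06% beside 7.07% of all events (5.6% higher and 1.47% lower). That count was 1 without HOMO replicate 3, and 1 without the variance trend (2.12% of all events). No member passed in Q175 HET mice by limma, where 0.598% of all events did, and 1 passed by a quasi-binomial model. There, 8 of the 66 members and 198 of the 1839 events had an unadjusted limma p under 0.05. HOMO and HET mice differed in 2 members in the Q150 line (2.18% of all events) and in 1 member in the Q175 line (0.816% of all events). The median log2 change over all events was itself above 0, at 0.10 (Q150 HET), 0.19 (Q150 HOMO) and 0.07 (Q175 HOMO), against 0.07, 0.09 and -0.05 over the members. After each mouse was centred on its median event, which takes out this shift, 19 members passed in R6/2 (11 higher and 8 lower) and 16 in Q150 HOMO (7 higher and 9 lower). Of all events, 27.6% passed in that fit in R6/2 (16.4% higher and 11.2% lower) and 18.3% in Q150 HOMO (9.52% and 8.8%), so the split of the whole list moved too. The split between higher and lower calls therefore depended on the centring.

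**Figure D1:**
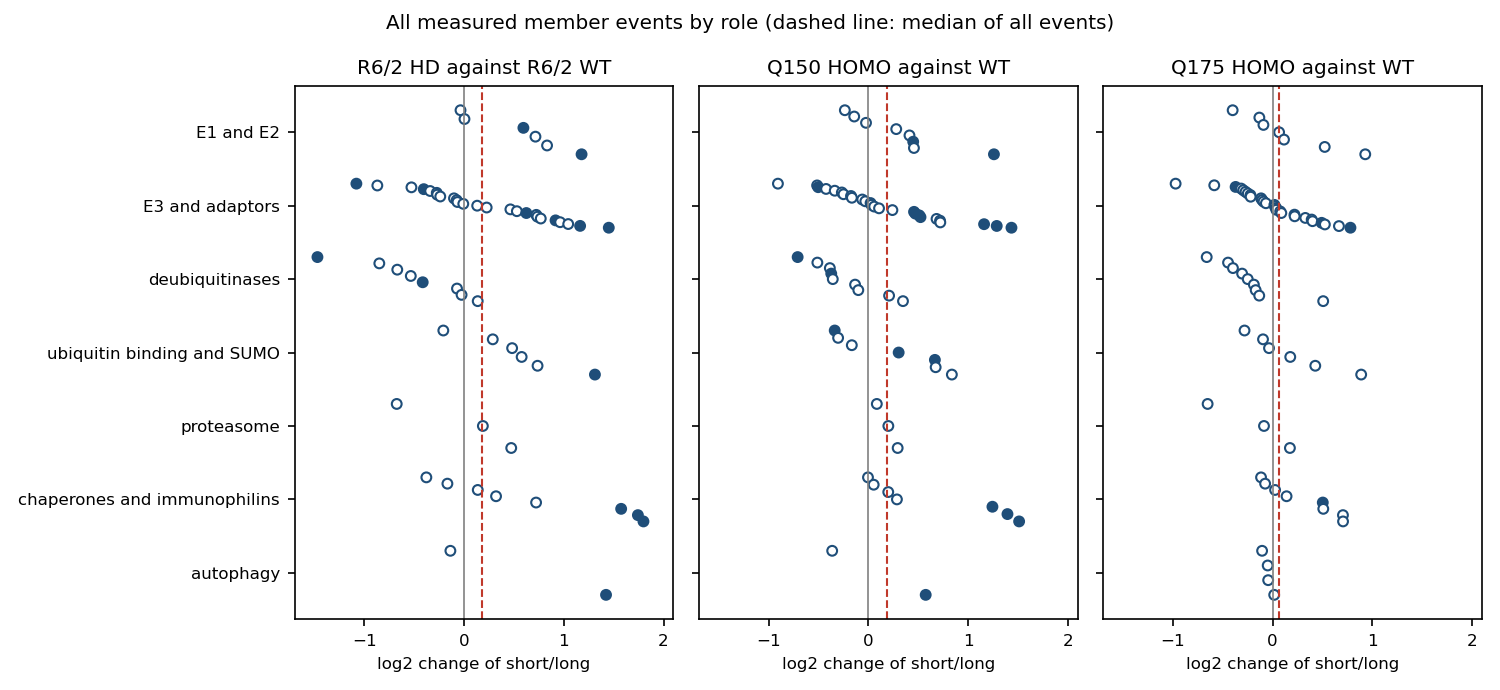
Each point is 1 member event placed by its log2 change of the short/long ratio (x axis) and its role (y axis), for the 3 comparisons named above the panels; filled points had an adjusted p under 0.05 and the dashed line is the median of all events. Chaperone events that passed lie to the right of 0, as do most events that passed in the whole list. In the deubiquitinase row, grouped by symbol, the events that passed are Usp14 and the SUMO protease Uspl1, both to the left, and no proteasome event passed.

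Among the 8 chaperone and immunophilin events, 3 passed in R6/2 and 3 of 7 in Q150 HOMO, all higher. The backgrounds for these counts are those above (21.1% of all events higher and 7.46% lower in R6/2, 19.8% and 4.09% in Q150 HOMO), so that most calls of the whole list were also higher. Among events of the Usp and Otu symbols, counting the duplicated Uspl1 listing once, 2 of 8 passed in R6/2 and 2 of 9 in Q150 HOMO, both lower in each case. These were Usp14, a deubiquitinase, and Uspl1, which is a SUMO protease, so 1 deubiquitinase passed in each comparison. Of the E3 ligases and adaptors 6 of 25 passed in R6/2 (4 higher) and 8 of 26 in Q150 HOMO (7 higher), and of the E1 and E2 enzymes 2 of 6 and 2 of 8, all higher. The 3 proteasome events, in Psme3, Psmf1 and Psmg4, did not pass in ratio in any comparison, with log2 changes from -0.68 to 0.47 in R6/2 mice.

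Exclusion rose in all 3 lines for Dnajc8, Rnf112 and Trim33, the members that passed in R6/2 HD, Q150 HOMO and Q175 HOMO mice alike. These were 3 of 56 distinct members listed for all 3 lines, or 5.36%, beside 4.09% (68 of 1662) of all such events. Calls were also compared by pairs of lines. With the duplicated Uspl1 listing counted once, R6/2 and Q150 HOMO shared 9 calls, all in the same direction, which is 60% of the R6/2 calls and 50% of the Q150 HOMO calls among the 56 members measured in both. Over all 1680 events of both lists the shares were 49.7% and 59%, and 240 of 245 shared calls had the same direction. Between R6/2 and Q175 HOMO 4 calls were shared, 26.7% and 100% of each line's calls, beside 20% and 77.3% over all events. Between Q150 HOMO and Q175 HOMO 3 calls were shared, 16.7% and 75%, beside 19.3% and 62.8% over all events. Across the 56 distinct events of both lists the log2 changes in R6/2 and in Q150 HOMO had a Pearson r of 0.582, given as a description, beside 0.587 over 1680 events. It was 0.581 beside 0.516 for R6/2 and Q175 HOMO (57 and 1696 events) and 0.449 beside 0.416 for Q150 HOMO and Q175 HOMO (59 and 1731 events). Events of 1 library are not independent replicates.

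Dnajc8 encodes a J-domain protein found with the spliceosome. Its event (chr4:132100037-132102551, in the coordinates of the files) was excluded in 3.52%, 3.67% and 4.02% of counts in the R6/2 WT mice and in 9.51%, 12.6% and 12.6% in the R6/2 HD mice. Every HD mouse lay far above every WT mouse. The log2 change was 1.74 (SE 0.15, limma adjusted p = 5.69e-06), on 3545 to 5559 counts per mouse and with a counting error of at most 0.926 percentage points. The change came from both junctions, since the short junction rose from 60.9 ± 1.32 to 143 ± 31.2 counts per 1000000 counts of the mouse (CPM; SD, n = 3) and the long junction went from 1571 ± 82.6 to 1080 ± 56.1.

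In the Q150 line Dnajc8 exclusion was 3.54%, 3.54%, 3.54%, 2.65% and 3.3% in WT, 7%, 5.91%, 5.59% and 4.53% in HET and 9.6%, 9.94%, 7.33% and 6.54% in HOMO mice. All HET and all HOMO mice lay above the WT mice, and HET and HOMO mice overlapped. The log2 change was 0.82 (SE 0.16, limma adjusted p = 0.00875) in HET and 1.40 (SE 0.16, adjusted p = 1.19e-06) in HOMO mice. Without HET replicate 1 the HET change no longer passed (adjusted p = 0.0561). The difference between HOMO and HET mice, 0.57 (SE 0.16), did not pass (limma adjusted p = 0.0785), but with the series of mouse numbers (a low and a high series in each knock-in line) as a term it was 0.67 and passed (adjusted p = 0.000388). In Q175 mice the WT values were 4.13%, 2.87%, 3.58%, 3.59% and 3.28%, the HET values 3.96%, 5.04%, 4.88% and 4.92%, and the HOMO values 4.77%, 4.52% and 5.27%. The HOMO mice again lay above all WT mice, by a log2 change of 0.50 (SE 0.13, limma adjusted p = 0.00895). This call was lost without HOMO replicate 3 and without the variance trend (adjusted p up to 0.0836). The HET change of 0.45 (SE 0.12) just missed the threshold (limma adjusted p = 0.0563). The change in R6/2 exceeded that in Q175 HOMO by 1.24 on the log2 scale (SE 0.20, limma adjusted p = 4.76e-05, a difference that passed in 13% of all events), and that in Q150 HOMO exceeded that in Q175 HOMO by 0.89 (adjusted p = 0.0162, 3.41% of all events).

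Rnf112, a RING-finger GTPase of brain membranes, had its event at chr11:61266415-61267120. Exclusion was 16.3%, 19.9% and 17.7% in the R6/2 WT mice and 42%, 35.3% and 35.2% in the R6/2 HD mice, on 920 to 1629 counts per mouse with a counting error of at most 3.18 percentage points. All HD mice lay above all WT mice, by a log2 ratio change of 1.45 (SE 0.16, limma adjusted p = 3.5e-05). Q150 WT mice had 19.2%, 18.3%, 22%, 23.9% and 22.9%, HET mice 25.9%, 27.7%, 22.3% and 26.6%, and HOMO mice 43%, 33%, 41.2% and 33.5%. Here HOMO mice stood apart from both other groups, while HET and WT mice overlapped. The change was 1.16 (SE 0.15, limma adjusted p = 8.03e-06) in HOMO mice against WT, 0.81 (SE 0.16, adjusted p = 0.00583) in HOMO against HET, and 0.35 (SE 0.15, adjusted p = 0.201) in HET against WT.

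In the Q175 line Rnf112 exclusion was 18.1%, 17.1%, 16.8%, 13.1% and 13.1% in WT, 15.3%, 16.8%, 18.6% and 16.3% in HET and 23.1%, 24% and 24.9% in HOMO mice. The same order was seen, with HOMO mice above all others. HOMO mice differed from WT by 0.78 (SE 0.13, limma adjusted p = 5.06e-05) and from HET by 0.65 (SE 0.13, adjusted p = 0.00275). All 4 Q175 HET mice bore numbers of the low series and all 3 HOMO mice of the high series, so genotype and series cannot be told apart in the second contrast without the WT mice. With series as a term, set by the WT mice of both series, it was 1.13 (adjusted p = 0.000244). With all 10 knock-in WT mice in place of the 5 of its own list, the change against WT no longer passed (adjusted p = 0.0712), and without the variance trend that against HET did not (adjusted p = 0.177). Rnf112 was the member that separated HOMO from HET mice in both lines. Its long junction went from 363 ± 24.8 to 170 ± 13.3 CPM (SD, n = 3) in R6/2 and from 386 ± 44.4 (n = 5) to 204 ± 39.2 (n = 4) in Q150 HOMO mice, while its short junction was 79.9 ± 14.2 and 102 ± 9.41, and 105 ± 20 and 122 ± 22.6.

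Trim33 encodes an E3 ligase of the TRIM family that acts on Smad proteins, and its event lay at chr3:103156078-103157619. Exclusion was 12.4%, 14.4% and 12.3% in R6/2 WT and 21.6%, 26.5% and 27.5% in R6/2 HD mice, a log2 change of 1.16 (SE 0.15, limma adjusted p = 0.000149). Knock-in changes were smaller but also without overlap between WT and HOMO mice. Exclusion in Q150 mice was 12.3%, 15.2%, 12.4%, 13.2% and 12.4% in WT and 17.7%, 20%, 16% and 17.1% in HOMO (0.51, SE 0.13, limma adjusted p = 0.0075). Q175 mice had 13.7%, 14.1%, 13.4%, 12.8% and 12.1% in WT and 18.5%, 15.1% and 19.6% in HOMO (0.49, SE 0.12, limma adjusted p = 0.0101). After centring on the median event the Q150 change no longer passed (adjusted p = 0.1), while the other two did. In Q175 it did not pass without HOMO replicate 1, HOMO replicate 3 or the variance trend (adjusted p up to 0.102). HET mice lay between, at 16.5% ± 1.89 (SD, n = 4) in Q150 and 15.8% ± 1.43 in Q175, and neither passed (limma adjusted p = 0.115 and 0.279). The change in R6/2 exceeded that in Q175 HOMO mice by 0.67 (SE 0.20, limma adjusted p = 0.0194). The difference between the changes in R6/2 and Q150 HOMO mice did not pass, so the Q150 change was not shown to be smaller.

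The knock-in mice bore numbers of a low and a high series, which may or may not mark a batch, and the changes were also read within them. In the low Q150 series (3 WT and 2 HOMO mice) the means of WT and HOMO mice were 3.54% and 9.77% for Dnajc8, 19.8% and 38% for Rnf112 and 13.3% and 18.9% for Trim33. The high Q150 series (2 WT and 2 HOMO mice) gave 2.98% and 6.94%, 23.4% and 37.3%, and 12.8% and 16.5%. All Q175 HOMO mice were of the high series, where the 2 WT mice had 3.43%, 13.1% and 12.5% against 4.85%, 24% and 17.7%. The direction was the same in each series for the 3 genes.

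**Figure D2:**
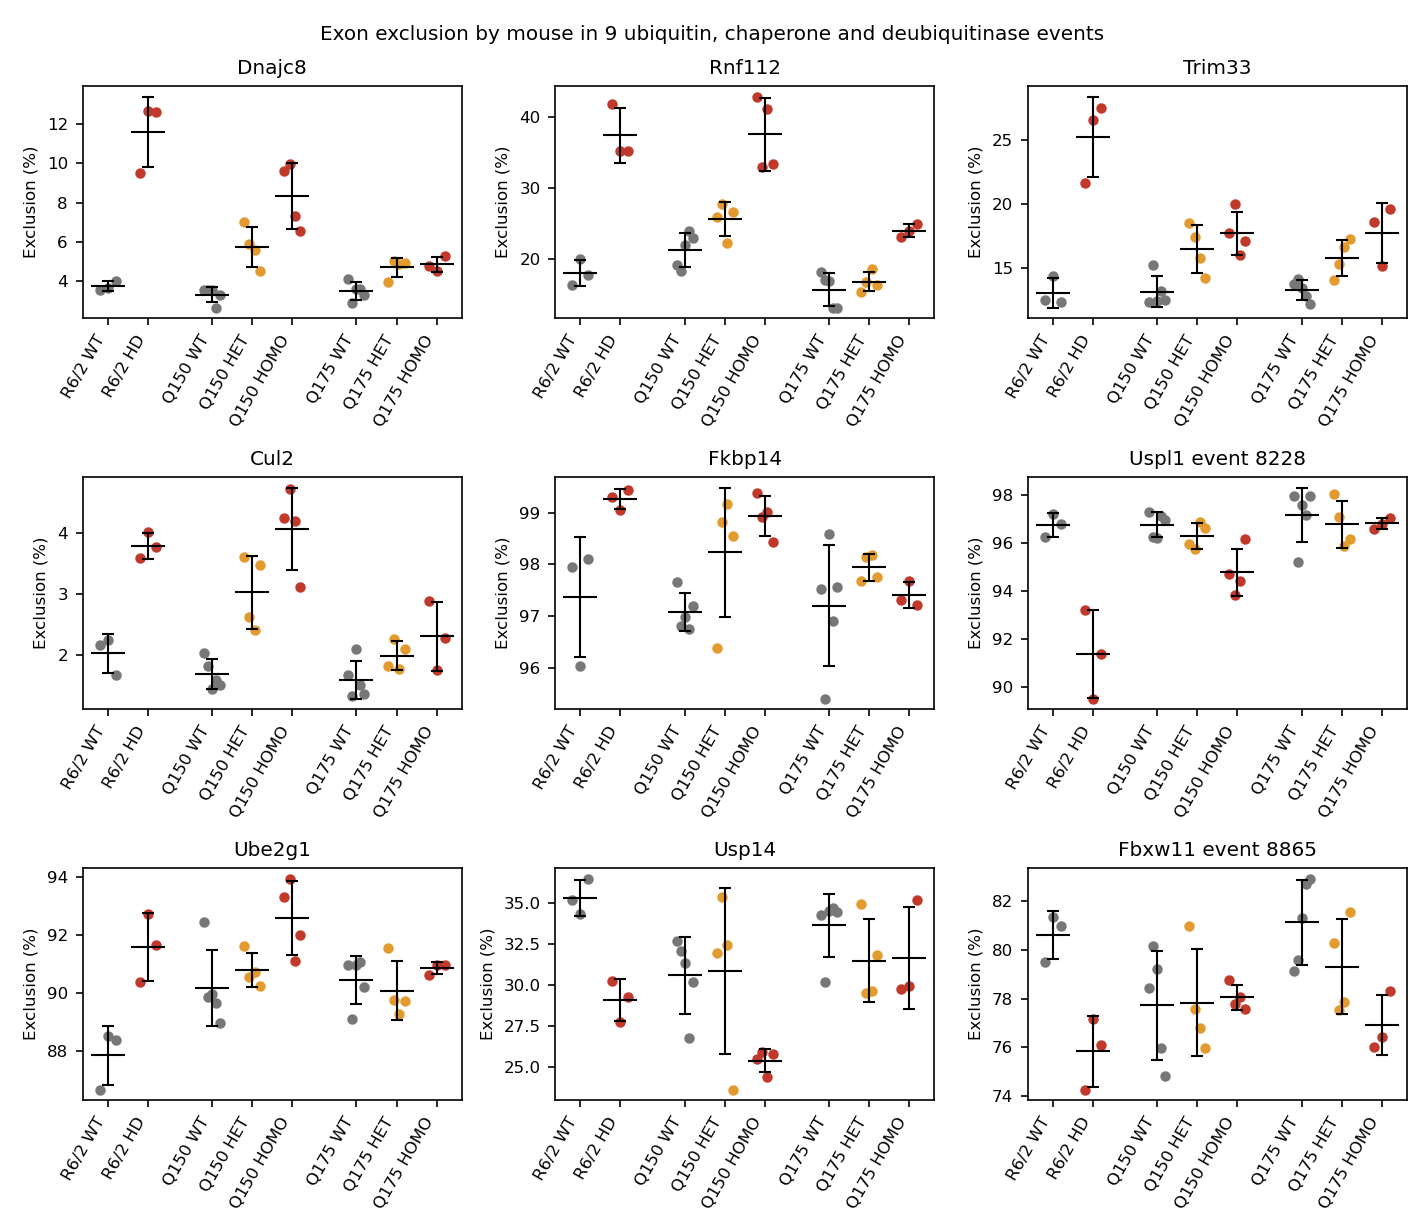
Exclusion in percent (y axis, a separate scale in each panel that does not start at 0) of 9 member events in each mouse of the 8 groups (x axis); points are mice and bars the mean with its SD. Dnajc8, Rnf112 and Trim33 are higher in R6/2 HD and in both HOMO groups than in their WT mice, and Usp14 and Uspl1 are lower in R6/2 HD and Q150 HOMO mice.

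Further members passed in R6/2 and Q150 HOMO mice with the same sign. Cul2, the scaffold of a cullin-RING ligase that uses VHL as substrate receptor, had a rarely skipped exon. Exclusion was 2.17%, 2.25% and 1.67% in R6/2 WT and 3.59%, 4.02% and 3.77% in R6/2 HD mice (log2 change 0.92, SE 0.23, limma adjusted p = 0.00956). In the Q150 line it was 2.04%, 1.83%, 1.45%, 1.59% and 1.52% in WT, 3.61%, 2.63%, 2.41% and 3.48% in HET and 4.25%, 4.72%, 4.19% and 3.12% in HOMO mice. All mutant mice lay above all WT mice in both lines, with changes of 0.85 (SE 0.20, limma adjusted p = 0.0192) in HET and 1.29 (SE 0.20, adjusted p = 6.25e-05) in HOMO mice. The HET call was lost without WT replicate 3, HET replicate 1 or HET replicate 4 (adjusted p up to 0.0792). Q175 HOMO mice had 2.31% ± 0.562 (SD, n = 3) against 1.6% ± 0.31 (n = 5), which did not pass (limma adjusted p = 0.201).

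Fkbp14 encodes a prolyl isomerase of the endoplasmic reticulum, and its exon was nearly always skipped. Exclusion was 98%, 96% and 98.1% in R6/2 WT and 99.3%, 99% and 99.4% in R6/2 HD mice, a log2 ratio change of 1.80 (SE 0.44, limma adjusted p = 0.00872). This large log2 change rests on few counts of the long junction, which was as low as 6 per mouse. In the Q150 line WT mice had 97.7%, 96.8%, 97%, 96.7% and 97.2% and HOMO mice 99.4%, 98.9%, 99% and 98.4% (1.51, SE 0.38, adjusted p = 0.00587). Q175 HOMO mice were at 97.4% ± 0.251 (n = 3) and WT at 97.2% ± 1.17 (n = 5), with a change of 0.03 (SE 0.37) and a difference from the R6/2 change of 1.77 (SE 0.55, limma adjusted p = 0.0314).

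Among enzymes that remove or pass on ubiquitin, Usp14, a deubiquitinase bound to the proteasome, was measured on 5703 to 15042 counts per R6/2 mouse. Its exclusion was 35.2%, 34.3% and 36.5% in R6/2 WT and 30.2%, 27.7% and 29.3% in R6/2 HD mice, so that the exon was kept more often in every HD mouse (log2 change -0.41, SE 0.09, limma adjusted p = 0.00399, and 0.0864 without the variance trend). Q150 HOMO mice had 25.5%, 25.9%, 24.3% and 25.8% and WT mice 32.7%, 32%, 31.3%, 26.7% and 30.2% (-0.37, SE 0.12, adjusted p = 0.0336). The Q150 call was close to the threshold. It did not survive the removal of WT replicate 1, 2 or 3 or of any HOMO mouse (highest adjusted p = 0.122 over all alternatives). Uspl1, a SUMO protease despite its name, showed the largest fall among the members that passed in R6/2 mice. Exclusion of event 8228 (chr5:149996382-149999920) was 96.2%, 97.2% and 96.8% in R6/2 WT and 93.2%, 89.5% and 91.4% in R6/2 HD mice (log2 change -1.47, SE 0.21, limma adjusted p = 0.00027). The long junction, which is the rare one here, went from 18.1 ± 2.37 to 41.3 ± 6.05 CPM (SD, n = 3). In Q150 mice exclusion was 97.3%, 96.2%, 96.2%, 97.1% and 97% in WT and 94.7%, 93.8%, 94.4% and 96.2% in HOMO (-0.71, SE 0.18, adjusted p = 0.0064), with the highest HOMO mouse just below the lowest WT mouse. Q175 HOMO mice changed by -0.25 (SE 0.23, adjusted p = 0.596), and the R6/2 change minus this one was -1.22 (limma adjusted p = 0.0241).

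Smaller changes shared by these lines were seen in Ube2g1, an E2 enzyme, and in Mib2, an E3 ligase of Notch ligands. Ube2g1 exclusion was 87.8% ± 1.02 in R6/2 WT and 91.6% ± 1.17 in R6/2 HD mice (SD, n = 3; log2 change 0.60, SE 0.14, limma adjusted p = 0.00579, and 0.055 without the variance trend). In Q150 mice it was 90.2% ± 1.33 (n = 5) in WT and 92.6% ± 1.29 (n = 4) in HOMO (0.45, SE 0.14, limma adjusted p = 0.0194). Mib2 exclusion rose from 67.3% ± 3.44 to 76.1% ± 0.797 in R6/2 (0.62, SE 0.15, limma adjusted p = 0.00801) and from 68.8% ± 4.53 to 75.4% ± 2.53 in Q150 HOMO mice (0.47, SE 0.16, limma adjusted p = 0.031). In Q150 the HOMO and WT mice overlapped for both genes and neither call held after centring on the median event (adjusted p = 0.212 for Ube2g1 and 0.233 for Mib2). Both Q150 calls were also lost without HOMO replicate 1 or 2, and that of Mib2 without WT replicate 3 or 5. Both changes were larger in R6/2 than in Q175 HOMO mice, by 0.53 (SE 0.17, limma adjusted p = 0.0328) and 0.59 (SE 0.20, adjusted p = 0.0475).

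Fbxw11, a substrate receptor of an SCF ubiquitin ligase, was the member with lower exclusion in R6/2 and Q175 HOMO mice. Event 8865 (chr11:32542935-32608187) had 79.5%, 81.4% and 81% in R6/2 WT and 74.3%, 77.2% and 76.1% in R6/2 HD mice (log2 change -0.40, SE 0.13, limma adjusted p = 0.0314). Q175 WT mice had 79.1%, 79.6%, 81.3%, 82.7% and 82.9% and HOMO mice 76%, 76.4% and 78.3% (-0.37, SE 0.11, adjusted p = 0.0405). Neither pair of groups overlapped. In R6/2 the call ended without the variance trend, WT replicate 4 or 6, or HD replicate 860 or 869 (adjusted p up to 0.101). In Q175 it ended without WT replicate 8, 9 or 10 or any HOMO mouse, and the adjusted p was 0.365 with all 10 WT mice. Q150 HOMO mice, at 78.1% ± 0.506 (n = 4) against 77.7% ± 2.24 (n = 5), had a change of 0.02 (SE 0.12). Event 7916 of the same gene, whose long junction had as few as 9 counts, passed only between Q150 HOMO (97.8% ± 0.366) and HET mice (98.9% ± 0.533), with a change of -1.12 (SE 0.28, limma adjusted p = 0.0346, up to 0.158 with single mice left out or other models).

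Members that passed in R6/2 mice and in no other comparison with WT were Hspa13, Atg16l2, Senp1 event 7009, Uba2 and Rnf167. Hspa13, an Hsp70 family member of microsomes, rose from 71.4%, 76.7% and 67.6% to 83.9%, 87.5% and 92.8% exclusion (log2 change 1.58, SE 0.42, limma adjusted p = 0.0134), on as few as 42 counts per mouse. Atg16l2, a paralogue of the autophagy factor Atg16l1, rose from 39.3%, 38.9% and 37.8% to 69.6%, 58.7% and 62.5% (1.42, SE 0.39, adjusted p = 0.0165), on only 18 to 46 counts per mouse, so that the 95% Wilson interval of a mouse reached 20.5 percentage points to either side. The HD mice did not overlap the WT mice in either gene, but the Hspa13 call was lost without WT replicate 6 or HD replicate 869 (adjusted p up to 0.0629) and the Atg16l2 call without HD replicate 860 (adjusted p = 0.065).

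Senp1, a SUMO protease, and Uba2, a subunit of the SUMO E1 enzyme, had mostly skipped exons that were skipped slightly more often in HD mice. Both log2 changes rest on few counts of the long junction, as low as 8 per mouse for Senp1 event 7009 and 13 for Uba2. Exclusion was 96.6% ± 0.264 and 98.6% ± 0.411 for Senp1 event 7009 (log2 change 1.31, SE 0.38, limma adjusted p = 0.0217) and 93.4% ± 1.49 and 97% ± 0.678 for Uba2 (1.18, SE 0.35, limma adjusted p = 0.0228; SD, n = 3). Both calls were lost without WT replicate 4 or 6, and also without HD replicate 869 for Senp1 (adjusted p up to 0.0984) and HD replicate 868 for Uba2 (up to 0.0875). Rnf167, a RING ligase of endosomes and lysosomes, went the other way. It fell from 76.7%, 78.5% and 83.7% to 65.5%, 66.4% and 63% (-1.08, SE 0.22, limma adjusted p = 0.00247). In Q150 HOMO mice its change was -0.16 (SE 0.18), and the R6/2 change minus this one was -0.91 (SE 0.28, limma adjusted p = 0.0472, beside 6.96% of all events). For Uba2 the change in R6/2 differed from that in Q175 HOMO mice by 1.58 (SE 0.50, limma adjusted p = 0.0337). For Hspa13, Atg16l2 and Senp1 no difference between lines passed.

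Dnajc1, Ube1c event 4078, Trim9 and Wdfy3 event 8300 were named members that passed in Q150 HOMO mice but not in R6/2 HD or Q175 HOMO mice. For Dnajc1 and Ube1c no difference between lines passed (limma adjusted p of 0.563 or more), so their changes were not shown to differ between lines, and Trim9 was listed for 1 line. Dnajc1, a J-domain protein of the endoplasmic reticulum membrane, had exclusion values of 15.2%, 37.8%, 28.5%, 19.3% and 17.5% in WT, 45.8%, 30%, 42.1% and 42% in HET and 44.4%, 40.1%, 37.3% and 43.7% in HOMO mice. WT replicate 2 overlapped both mutant groups, and the changes were 1.15 (SE 0.30, limma adjusted p = 0.0314) in HET and 1.24 (SE 0.30, adjusted p = 0.00402) in HOMO mice. The HET call was lost after centring and without any of WT replicates 1, 4 and 5 and HET replicates 1, 3 and 4 (adjusted p up to 0.135 over all alternatives). R6/2 HD mice had 44.2% ± 6.47 against 32.3% ± 3.98 (SD, n = 3), a change of 0.72 (SE 0.29) with no overlap but an adjusted p of 0.0877 by limma. Q175 HOMO mice had 30.8% ± 5.48 (n = 3) against 21.7% ± 7.18 (n = 5), a change of 0.71 (SE 0.30, limma adjusted p = 0.172), and Q175 HET mice changed by 0.79 (SE 0.28, adjusted p = 0.229). Ube1c is the older symbol of Uba3, the catalytic subunit of the NEDD8 E1 enzyme. Its exclusion rose from 24.6% ± 9.08 (n = 5) to 43.7% ± 9.94 (n = 4) in Q150 HOMO mice (1.26, SE 0.36, limma adjusted p = 0.0143), on 26 to 77 counts per mouse. It no longer passed without HOMO replicate 4 (adjusted p = 0.0619). In R6/2 HD and Q175 HOMO mice the changes, 0.83 and 0.93, did not pass (limma adjusted p = 0.102 and 0.0928).

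Trim9, a brain-enriched E3 ligase, was listed for the Q150 line alone. Its skipping was very rare, at 0.211%, 0.147%, 0.15%, 0.141% and 0.287% in WT and 0.593%, 0.645%, 0.46% and 0.39% in HOMO mice, on 2093 to 3783 counts per mouse, and the rise of 1.44 (SE 0.35, limma adjusted p = 0.00473) rested on as few as 4 counts of the short junction. Wdfy3, the large autophagy scaffold also known as Alfy, had 12.5%, 16.9%, 13.2%, 13.2% and 17.2% exclusion of event 8300 in WT and 19.9%, 22.5%, 19.9% and 18.4% in HOMO mice (0.58, SE 0.14, adjusted p = 0.0055). These groups did not overlap. The adjusted p was 0.0613 after centring on the median event. In R6/2 HD mice the change was -0.14 (SE 0.15) and in Q175 HOMO mice -0.11 (SE 0.12), and both differed from the Q150 change: R6/2 minus Q150 was -0.71 (limma adjusted p = 0.0459) and Q150 minus Q175 was 0.68 (adjusted p = 0.033). The other 6 members that passed in Q150 HOMO mice, 4 higher and 2 lower, had changes of 0.30 to 0.67 in size.

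Other chaperone and autophagy events showed no change that passed in any comparison. Hsp110 (now Hsph1), which resets Hsp70 and helps to dissolve aggregates, had 8.66% ± 2.08 and 7.67% ± 0.81 in R6/2 WT and HD mice, and 7.92% ± 2.25 and 7.76% ± 1.43 in Q150 WT and HOMO mice. Its largest difference was in Q175 HET mice, at 10.8%, 7.29%, 8.49% and 6.88% against 11.2%, 11.2%, 10.2%, 11.5% and 10.5% in WT, with 3 of 4 HET mice below all WT mice (-0.44, SE 0.14, limma adjusted p = 0.169). Dnaja3, a mitochondrial J-domain protein, had 70.5% ± 4.74 and 74.9% ± 3.89 in R6/2 mice, and its largest change against WT in the 3 comparisons of R6/2 HD and HOMO mice was 0.32 (SE 0.22, limma adjusted p = 0.313). Dnajc25 reached 0.51 (SE 0.23, limma adjusted p = 0.206) in Q175 HOMO mice. Dnajc5, the synaptic vesicle chaperone, skipped its exon in 99.9% of counts in all R6/2 and Q175 groups. Ambra1, a Beclin 1 partner, and Wdfy3 event 7085 were listed for Q175 only, with changes of -0.04 (SE 0.50) and 0.02 (SE 0.38) in HOMO mice. The Ambra1 event had 12 to 43 counts per mouse and could show only very large changes.

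**Figure D3:**
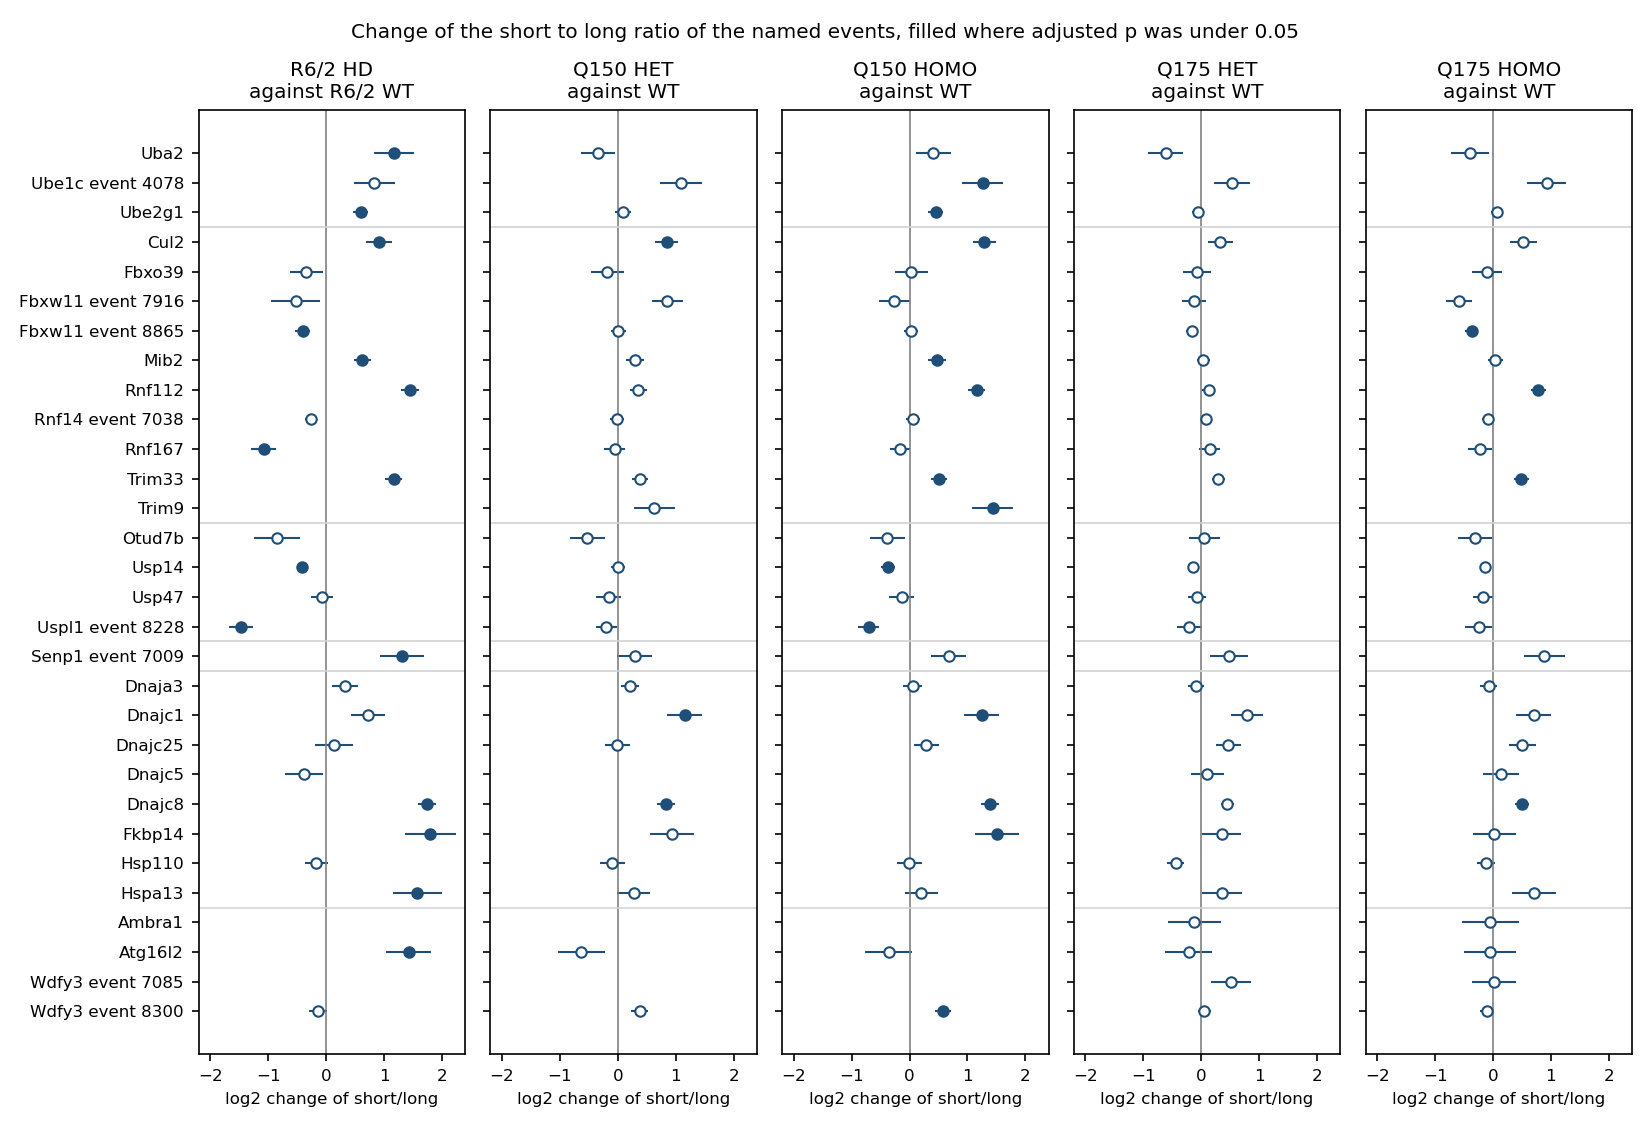
Log2 change of the short/long ratio (x axis) with its standard error for 30 named events (y axis, in blocks by role from E1 and E2 enzymes at the top to autophagy genes at the bottom) in the 5 comparisons with WT; filled points had a limma adjusted p under 0.05. Filled points are most frequent in R6/2 HD and Q150 HOMO, and Q175 HET has none.

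The sum of the short and long counts of an event, as a share of all counts of the mouse, was tested in the same way. It is relative to the counts of the listed events and is not an expression level of the gene. Totals of events of 1 gene could agree or differ. In R6/2 HD mice those of Rnf14 rose by 0.45 and 0.43. Uspl1 event 8215 rose by 1.30 (limma adjusted p = 3.43e-05), while event 8228 changed by -0.21 (adjusted p = 0.154). In this bulk tissue, fewer cells of a type and less RNA per cell cannot be told apart. In R6/2 HD mice 29 of 59 member totals passed, 25 higher and 4 lower, beside 44.4% of all events (515 higher and 259 lower of 1743). After centring on the median event 25 passed, 19 higher and 6 lower, beside 40% of all events (22.4% higher and 17.6% lower). In Q150 HOMO mice 10 of 63 passed, 7 higher, beside 14.1% of all events (167 higher and 85 lower of 1785). In Q175 HOMO mice 11 of 66 passed, 8 higher, beside 12.8% of all events (129 higher and 107 lower of 1839). After centring, 10 passed in Q150 HOMO, 6 higher and 4 lower, beside 3.75% of all events higher and 8.18% lower. In Q175 HOMO 9 passed after centring, 6 higher and 3 lower, beside 4.4% and 7.23%. The Q175 count of 11 dropped to 2 without HOMO replicate 1, to 6 without HOMO replicate 3 and to 7 without WT replicate 8. It was 3 with the series of mouse numbers as a term (5.49% of all events). The Q150 count of 10 was 4 without HOMO replicate 2. In HET mice 1 member total passed in Q150 (Fkbp14; 0.84% of all events) and none in Q175, where 0.109% of all events did and 11 members and 256 of all events had an unadjusted limma p under 0.05.

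Markers of some cell types, but not of all, separated R6/2 HD from WT mice. The summed level of the 8 of 18 neuronal marker genes on the list was 31185 to 35754 CPM in HD and 38546 to 42358 in WT mice, and the single astrocyte gene of 7 on the list, Ndrg2, was at 8832 to 9939 and 17167 to 18102. The 2 of 10 oligodendrocyte genes overlapped between the groups (9001 to 13066 and 10879 to 13272). So did the 1 of 5 vessel genes on the list, Pecam1 (33.4 to 57.6 and 45.8 to 80.6). Of the 7 microglial markers none was on the list. In the knock-in lines the neuronal sums of HOMO and WT mice overlapped in Q175 (37330 to 43169 and 35647 to 43948) and lay next to each other in Q150 (34909 to 39821 and 39836 to 47586). Ndrg2 was at 9679 to 11665 in Q175 HOMO and 13280 to 16636 in Q175 WT mice, and overlapped between these groups in Q150. The part of these differences in the member results was not tested.

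Totals of Dnajc8 and Rnf112 were lower in R6/2 HD and in both HOMO groups, where their exclusion was higher. Most counts of both events came from the long junction, so a fall of that junction raises the ratio and lowers the total together. The 2 readouts share these counts and are not separate results. In Q150 HET mice, where Dnajc8 exclusion also passed, its total changed by -0.01 (limma adjusted p = 0.956). The Dnajc8 total was 1632 ± 81.6 CPM in R6/2 WT and 1222 ± 87.2 in HD mice (SD, n = 3; log2 change -0.42, SE 0.08, limma adjusted p = 0.000566), with changes of -0.26 (adjusted p = 0.0201) for Q150 HOMO and -0.20 (adjusted p = 0.0275) for Q175 HOMO mice. The Q150 call was lost without HOMO replicate 2 or 3 (adjusted p up to 0.0561), and the Q175 call without WT replicate 8, without HOMO replicate 2 or 3 and with the series of mouse numbers as a term (up to 0.203). The Rnf112 total was 443 ± 37.7 and 272 ± 7.02 in R6/2 (-0.70, SE 0.09, limma adjusted p = 3.52e-05), with changes of -0.60 (adjusted p = 0.00309) and -0.27 (adjusted p = 0.0118, and 0.0658 without Q175 HOMO replicate 1) in the HOMO mice. Fkbp14 rose in total as well as in exclusion, from 124 ± 10.7 to 246 ± 5.83 CPM in R6/2 mice (0.99, SE 0.10, limma adjusted p = 5.45e-06), by 0.72 (adjusted p = 0.000149) in Q150 HOMO and 0.45 (adjusted p = 0.017) in Q150 HET mice, the last lost without WT replicate 3 or HET replicate 1 (up to 0.0862). In Q175 HOMO mice its change of 0.31 (limma adjusted p = 0.0448) did not hold after centring (adjusted p = 0.0993), nor with the series of mouse numbers as a term (adjusted p = 0.242), nor without WT replicate 6, 7 or 10 or any HOMO mouse (up to 0.148).

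Further totals rose in R6/2 and in 1 of the HOMO groups, most of them without a ratio that passed. Fbxo39, an F-box protein, went from 69.7 ± 8.84 to 136 ± 7.74 CPM in R6/2 (log2 change 0.97, SE 0.12, limma adjusted p = 3.29e-05) and from 93.7 ± 19.3 to 144 ± 26.4 in Q150 HOMO mice (0.62, SE 0.16, limma adjusted p = 0.0177, and up to 0.0643 without HOMO replicate 2 or 3), with ratio changes of -0.34 and 0.03. The totals of Otud7b, a deubiquitinase, rose by 0.47 and 0.42 in the same comparisons (limma adjusted p = 0.00949 and 0.00986), and those of Senp1 event 7009 by 0.86 and 0.37 (adjusted p = 2.08e-05 and 0.00927). Rnf14 event 7038, Usp47, Wdfy3 event 8300 and Uba2 passed in R6/2 and Q175 HOMO mice, with rises of 0.45 to 0.57 in R6/2 and of 0.23 to 0.34 in Q175 HOMO (limma adjusted p of 0.0275 or less in Q175). Each of the Q175 calls was lost in some refit. With the series of mouse numbers as a term Rnf14 (adjusted p = 0.114), Usp47 and Wdfy3 did not pass. Without HOMO replicate 1 Usp47 (up to 0.132 over its alternatives), Wdfy3 (up to 0.11) and Uba2 (up to 0.0766) did not pass, nor did Wdfy3 and Uba2 without HOMO replicate 3, or Wdfy3 without WT replicate 8 or 9. In R6/2 mice, 11 of the 16 members whose ratio passed also passed in total, 6 with both higher, 3 with a higher ratio and lower total and 2 with a lower ratio and higher total, and the other 5 did not pass in total. Of the 498 events of the whole list whose ratio passed, 54.8% also passed in total, 25.5% with both higher, 16.1% with a higher ratio and lower total and 9.44% the reverse.

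**Figure D4:**
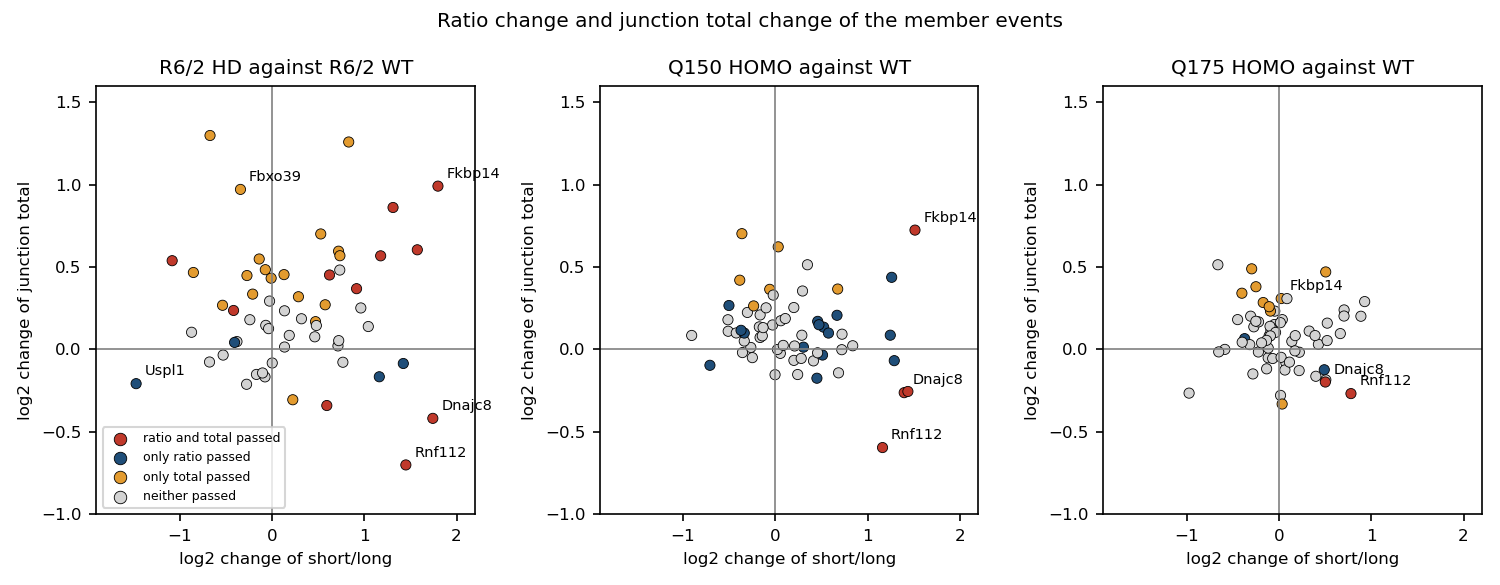
Log2 change of the short/long ratio (x axis) and of the junction total (y axis) for each member event in 3 comparisons; colours show which of the 2 tests passed. Dnajc8 and Rnf112 lie in the lower right quadrant in each panel, with higher exclusion and a lower total. Both axes are made from the same counts.

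Mean exclusion over the member events was 53.8% ± 0.36 in R6/2 WT and 55.7% ± 0.529 in R6/2 HD mice (SD, n = 3), a difference of 1.92 percentage points beside 1.73 over all events. In Q150 HOMO mice it was 1.26 points above WT (1.82 over all events) and in Q175 HOMO mice 0.559 points above WT (0.64 over all events). Q150 HET mice were 0.763 points above WT (0.936 over all events). In Q175 HET mice the member mean differed from WT by -0.376 points, while that of all events was 0.274 points higher. No test was made of these means.

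Of 124 further genes of these pathways that the symbols do not catch, 13 had 18 events on the R6/2 list and 4 of these events passed, 3 higher and 1 lower. Both events of Nbr1, an autophagy receptor for ubiquitinated cargo, were among them, with exclusion going from 2.8% ± 0.194 to 7.26% ± 0.282 (log2 change 1.44, SE 0.13, limma adjusted p = 6.48e-06) and from 39.1% ± 3.48 to 57.8% ± 2.33 (1.10, SE 0.18, limma adjusted p = 0.00076; SD, n = 3). Tcp1, a subunit of the CCT chaperonin, rose by 1.47 (SE 0.38, limma adjusted p = 0.0118), and Dzip3, an E3 ligase, fell by 0.50 (adjusted p = 0.0122). In Q150 HOMO mice 5 of 17 events passed, all higher, in Nbr1 (both events), Tcp1, Pja2 and Btrc. These counts stand beside the 28.6%, 23.9% and 7.07% of all events that passed. In Q175 HOMO mice 1 of 18 passed, the second Nbr1 event, at 44.9% ± 5.14 (n = 5) and 53.8% ± 2.43 (n = 3) exclusion (0.52, SE 0.16, limma adjusted p = 0.0478).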

How the data were processed

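The authors made RASL-seq libraries from cortical RNA of 31 mice, using probe pairs for known junctions, oligo(dT) selection, ligation and PCR. No molecular identifiers are described, so intervals cover counting error only. Per the file headers the deposited values are short and long junction counts with no normalization, recorded under the unit other because large values carry a comma, which was removed. The lowest count of any junction in any mouse was 4. Per the labels the build is mm10, but 8 of 67 member events (11.9%) lay inside the gene of the same symbol in the GRCm38 RefSeq table, so positions are printed as given and no annotation or sequence was attached. The aligner is not given in the sources used here.

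Log2((short + 0.5) / (long + 0.5)) was fitted with limma 3.58.1 in R 4.3.3, with all groups of a list in 1 fit, a variance trend on the counts and Benjamini-Hochberg adjustment over all events of the list with a mean of at least 10 counts. Junction totals were fitted as log2 of the sum per 1000000 counts of the mouse (CPM). A difference between lines was tested as the difference of the 2 changes over the events in both lists. The fits were tested on simulated data, where most of the smallest simulated ratio changes were missed and the share of false calls was above the threshold for the ratios of both HOMO groups and the totals of R6/2. Titles and genotype fields of the labels conflict on the knock-in line, which was taken from the glutamine numbers, and WT knock-in mice were split by which event list their files held. The numbers of the mice fell into 2 series in each knock-in line, used as a term in an alternative. Of the 47 pairs of mice of 1 group none had identical counts. The methods give other numbers of HOMO mice than the labels. A figure legend in the paper's supplement gives the same numbers as the labels, which were followed.

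Named events were those that passed in at least 2 of R6/2 HD, Q150 HOMO and Q175 HOMO against WT, the largest changes among those that passed (12 in R6/2, 8 in Q150 HOMO, 6 in Q175 HOMO, 4 in each other comparison), every chaperone event of the Dnaj, Hsp and Bag families and every Wdfy, Ambra and Atg event, and those whose total passed in R6/2 and in a HOMO comparison. The members, roles, lists and tests were chosen with earlier results of these data known. Figures were drawn with matplotlib 3.10.9.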

Additional observations from a re-analysis of the deposited data

Results flagged for a closer look

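Among the named events 139 groups of 4 or 5 mice were examined for a mouse far from the others of its group, and 7 were found; chance gives about 1 in 20 such groups. In Dnajc8, Q150 WT replicate 4 was at 2.65% exclusion (others 3.3% to 3.54%) and Q175 HET replicate 1 at 3.96% (others 4.88% to 5.04%). Hspa13 was at 86.3% in Q150 WT replicate 2 (others 77.6% to 79.5%), and Trim9 at 0.455% in Q150 HET replicate 2 (others 0.225% to 0.255%). Q175 WT replicate 7 stood apart in both Usp14 (30.2%, others 34.3% to 34.7%) and Uspl1 event 8228 (95.2%, others 97.2% to 97.9%). Usp47 was at 86.4% in Q150 HET replicate 4 (others 91.8% to 92.8%).

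For 12 pairs of a named event and 2 lines, the limma test of the difference between the log2 changes passed. Of the members tested, the difference passed in 2 of 57 between R6/2 and Q150 HOMO (6.96% of all events), 9 of 58 between R6/2 and Q175 HOMO, with Uspl1 event 9408 as a duplicate listing (13% of all events), and 2 of 60 between Q150 HOMO and Q175 HOMO (3.41% of all events). The R6/2 change minus the Q150 HOMO change was -0.71 for Wdfy3 event 8300 and -0.91 for Rnf167. The R6/2 change minus the Q175 HOMO change was 0.59 for Mib2, 0.67 for Trim33, 1.77 for Fkbp14, 0.67 for Rnf112, 1.58 for Uba2, -1.22 for Uspl1 event 8228, 0.53 for Ube2g1 and 1.24 for Dnajc8. The Q150 HOMO change minus the Q175 HOMO change was 0.68 for Wdfy3 event 8300 and 0.89 for Dnajc8. Line and age differ together in these differences and cannot be told apart.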

How the results depend on the processing

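Of 164 alternative counts of members that passed, 135 were within 1.5 times the reported count. With all 10 knock-in WT mice the ratio counts were 8 of 60 in Q150 HET (8.26% of all events) and 1 of 60 in Q175 HET (0.635%). With the series of mouse numbers as a term 4 of 63 ratios passed in Q150 HOMO against HET (4.48% of all events), and 5 of 63, 17 of 63 and 3 of 66 totals in Q150 HET, Q150 HOMO and Q175 HOMO (5.55%, 28.3% and 5.49% of all events). Without the variance trend 1 ratio passed in Q150 HOMO against HET (1.29% of all events), 1 in Q175 HOMO (2.12%) and 0 in Q175 HOMO against HET (0.0544%). The quasi-binomial model gave 1 in Q150 HOMO against HET (2.24%) and 1 in Q175 HET (1.2%), and fitting only the groups compared gave 1 in Q150 HOMO against HET (1.79%). Leaving out each mouse in turn gave ratio counts of 13 to 16 in R6/2, 0 to 4 in Q150 HET (0 without HET replicate 1, 1 without HET replicate 4), 14 to 18 in Q150 HOMO, 1 to 3 in Q150 HOMO against HET, 0 to 2 in Q175 HET, 1 to 5 in Q175 HOMO (1 without HOMO replicate 3, 2 without HOMO replicate 1) and 1 to 1 in Q175 HOMO against HET. For totals the ranges were 25 to 28 in R6/2, 0 to 2 in Q150 HET, 4 to 12 in Q150 HOMO, 0 to 0 in Q175 HET and 2 to 11 in Q175 HOMO. Of 74 calls of named events, 38 passed under every alternative run, and no call reversed in 906 refits. The cause of these differences was not tested. No paired analysis was possible because the labels name no replicate shared by the groups compared: knock-in replicate numbers here are in accession order, and the mouse numbers in the labels differ between the groups of a line. Members with low counts, such as Atg16l2, Ambra1 and Ube1c event 4078, could show only large changes.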
